A study of Rattus norvegicus with 22 samples.

Results

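Complement is a cascade of plasma proteins that tags cells and debris for removal and draws in leukocytes. The proteases C1r and C1s start its classical arm inside the C1 complex, all arms meet at the cleavage of C3, and factor B drives the alternative arm that amplifies it. Factor I and CD55 restrain the cascade, and the receptors of the C3a and C5a fragments pass its signal to cells. Most plasma complement comes from the liver, but tubular cells, fibroblasts and macrophages of the kidney also transcribe these genes, and complement is a known component of progressive kidney disease.

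Transcript levels of 8 genes of this cascade were followed, namely the activators C1r, C1s, C3 and Cfb (factor B), the regulators Cfi (factor I) and Cd55, and the receptors C3ar1 and C5ar1. They were chosen by name, through the rat Entrez identifiers of the files, and all 8 were found among the 17334 genes listed. The RNA came from the left kidney of 22 male PKD/Mhm (Cy/+) rats, all 8 months old, a strain that develops polycystic kidneys from a missense mutation in Anks6. Of these, 6 rats were untreated, 6 received human adipose-derived stromal cells (ASC) intraperitoneally (i.p. ASC), 6 received them intravenously (i.v. ASC) and 4 received conditioned medium (CM). Treatment was given once per month over 6 months, and every control rat carried the mutation as well, so no rat without the mutation enters any comparison. The labels give neither the source of CM nor its route, while the study describes a medium conditioned by ASC. The animals of the 4 groups were different rats, and a rat is named here by the number in its label. The study asked whether treatment changes the expression profile of the cystic kidney, and the complement genes were also set against Slc34a1, the sodium-phosphate cotransporter of the proximal tubule, over the same rats.

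Total counts ran from 12195682 to 14734772 per rat. The libraries carried kidney RNA, with Umod, a thick limb gene, at a mean of 2208 TPM (a unit of transcript abundance scaled by transcript length and library total), Miox of the proximal tubule at 1600 TPM and Aqp2 of the collecting duct at 810 TPM. The hepatocyte genes Alb, Apoa1, Apoa2, Ahsg and Ttr were listed at 0 in some rats, and 8 liver genes together reached 17.9 to 73.8 TPM. In a bulk kidney sample, fewer cells of a type and less RNA per cell cannot be told apart.

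For 5 of the 8 genes a promoter sequence was at hand from RefSeq (assembly GRCr8), namely for C3, Cfi, C1r, Cd55 and C3ar1. The 250 bases before the start are shown for C3, on which the cascade converges, and for C1r, whose level follows that of its neighbour C1s. C1r and C1s lie next to each other on chromosome 4, Cfb lies next to C2 on chromosome 20, and C5ar1 next to C5ar2 on chromosome 1. The capitals mark the letters TTGCNNAA, a core of C/EBP sites, searched on both strands. The stretch of C3 is chr9:2201340-2201589 on the minus strand, with the match 104 to 97 bases before the start, and that of C1r is chr4:159098763-159099012 on the plus strand, with the match 83 to 76 bases before it, read on the other strand.
C3: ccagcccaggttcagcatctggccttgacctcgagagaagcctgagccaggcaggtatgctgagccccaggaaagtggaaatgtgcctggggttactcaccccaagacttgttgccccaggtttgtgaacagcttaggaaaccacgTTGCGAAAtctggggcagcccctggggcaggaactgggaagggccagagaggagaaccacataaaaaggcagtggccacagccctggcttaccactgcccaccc
C1r: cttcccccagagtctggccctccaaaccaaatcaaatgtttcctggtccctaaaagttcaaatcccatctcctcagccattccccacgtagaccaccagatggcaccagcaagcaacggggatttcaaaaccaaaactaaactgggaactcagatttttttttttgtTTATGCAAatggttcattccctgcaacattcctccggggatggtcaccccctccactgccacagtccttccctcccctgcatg
A match to these letters was present in 10.6% of 33469 rat promoter windows of 300 bases. Of the 5 windows at hand, those of C3 and C1r held a match, and those of Cfi, Cd55 and C3ar1 held none. C1r was shown in place of Cfb, which had no sequence at hand, after values were seen. The letters TTCNNNGAA (STAT, 8.87% of windows), GAAANNGAAA (interferon response, 3.92%) and the NF-kappaB consensus (4.18%) were in none of the 5 windows. These matches describe the sequence and were not tied to expression.

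The C1 proteases were the most abundant of the 8 transcripts and the receptor C3ar1 the least. Over 22 rats the mean level was 154 ± 58.4 TPM (SD, n = 22) for C1r and 144 ± 55.3 TPM for C1s, the percentiles 93.2 and 92.7 of the 15328 genes above 0. C3 followed at 44.5 ± 13.5 TPM, Cfb at 18.6 ± 5.80 TPM and Cfi at 15.5 ± 4.24 TPM. The receptors and the membrane regulator were lower, with C5ar1 at 10.4 ± 3.90 TPM, Cd55 at 7.45 ± 2.73 TPM and C3ar1 at 2.08 ± 0.916 TPM. TPM is scaled for transcript length, so these levels can be set beside each other. C1s exceeded C3 in 22 of 22 rats, and C3 exceeded Cfb in 21 of 22. The neighbours Cfb and Cfi were not separated, as Cfb was the higher in only 14 of 22 rats. For C3ar1 the depth was low, at 15 to 75 estimated counts per rat, against 762 to 3491 for C3. The C1q subunits, named after their values were seen as the third component of C1, had means of 201 (C1qa), 124 (C1qb) and 144 TPM (C1qc), in the range of C1r and C1s.

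**Figure D1:**
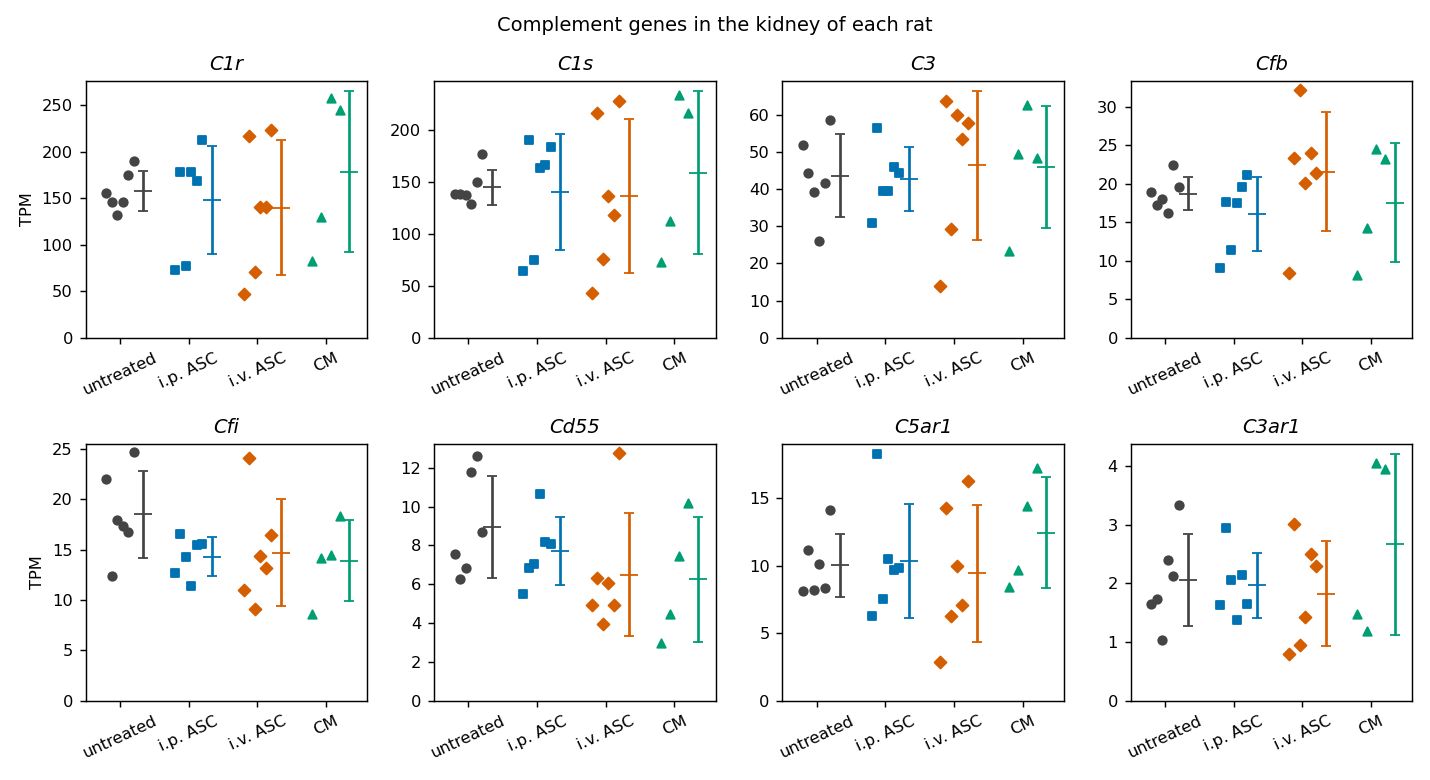
TPM of each complement gene (vertical axes) in every rat, by group, with 1 point per rat, the group mean as a short line and the SD as the bar (n = 6, 6, 6 and 4). The groups overlap in all 8 panels, and the same 5 treated rats hold the lowest levels of C1r and of C1s.

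C1r and C1s, the serine proteases of C1, showed no difference between groups past the threshold, and their spread between treated rats was wide. C1r ranged from 132 to 190 TPM in untreated rats (median 151), from 73.0 to 212 TPM after i.p. ASC (median 173) and from 47.0 to 223 TPM after i.v. ASC (median 141). After CM the 4 rats had 82.4, 130, 245 and 258 TPM. The lowest 5 values belonged to i.v. ASC rats 3 and 9, i.p. ASC rats 5 and 7 and CM rat 2, and a gap from 82.4 to 130 TPM set them apart from the other 17 rats. The same 5 rats held the lowest C1s levels, between 43.0 and 76.1 TPM. Over the 22 rats both genes were higher at higher label numbers (r = 0.61 for C1r and 0.58 for C1s, rho = 0.53 and 0.51, permutation p of r = 0.00263 and 0.0049), which the labels do not tie to a batch. For C1r the log2 fold change to untreated rats was -0.01 (SE 0.32) after i.p. ASC, -0.07 (SE 0.32) after i.v. ASC and 0.22 (SE 0.35) after CM, with adjusted p-values of 0.994, 0.934 and 0.947. C1s gave 0.04 (SE 0.33), 0.004 (SE 0.33) and 0.16 (SE 0.37), with adjusted p-values of 0.978, 0.997 and 0.968. All adjusted p-values of fold changes come from the quasi-likelihood test of edgeR and were adjusted by Benjamini-Hochberg over the 12867 genes tested.

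C3, whose cleavage product C3b marks surfaces, ranged from 26.0 to 58.5 TPM in untreated rats (median 43.0) and from 30.9 to 56.4 TPM after i.p. ASC (median 41.8). After i.v. ASC it ranged from 13.9 to 63.7 TPM (median 55.7), and the 4 CM rats had 23.4, 48.3, 49.5 and 62.4 TPM. The groups overlapped throughout, with i.v. ASC rat 3 the lowest of all 22 and i.v. ASC rat 8 the highest. The log2 fold change was 0.08 (SE 0.27), 0.19 (SE 0.27) and 0.13 (SE 0.30) in the order i.p. ASC, i.v. ASC, CM, with adjusted p-values of 0.949, 0.779 and 0.973.

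Cfb, the protease subunit of the alternative convertase, ranged from 16.2 to 22.4 TPM in untreated rats (median 18.5). It ranged from 9.11 to 21.1 TPM after i.p. ASC (median 17.6) and from 8.44 to 32.2 TPM after i.v. ASC (median 22.4), and was 8.23, 14.3, 23.2 and 24.5 TPM after CM. The highest level of all rats, 32.2 TPM in i.v. ASC rat 9, fell in a rat with low C1r (71.1 TPM), and it was the one rat in which Cfb exceeded C3. The log2 fold change was -0.14 (SE 0.25) after i.p. ASC, 0.33 (SE 0.25) after i.v. ASC and -0.06 (SE 0.28) after CM, with adjusted p-values of 0.896, 0.585 and 0.990. Set directly against i.p. ASC, i.v. ASC gave 0.47 (SE 0.25) for Cfb, the comparison's largest difference among the 8 genes, with an adjusted p-value of 1 and an unadjusted one of 0.0774. That difference was 0.28 without i.v. ASC rat 9 and 0.62 without i.v. ASC rat 3, and the difference to untreated rats was 0.14 and 0.49 without the same rats. With the label number as a covariate, i.v. ASC gave 0.52 against i.p. ASC and 0.51 against untreated rats. The unadjusted p-values of edgeR's test were 0.0373 and 0.0481 there, and neither passed after adjustment. Rat 9 also had the highest summed level of the urothelium markers, 551 TPM where no i.p. ASC rat exceeded 10.6 TPM, and of the collecting duct markers, 3040 TPM. I.v. ASC rat 3 had a urothelium sum of 326 TPM with Cfb at 8.44 TPM. Over 22 rats, r of Cfb was 0.10 with the urothelium sum and 0.42 with the collecting duct sum. The part of these markers in the Cfb level of rat 9 was not tested.

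Among the regulators, Cfi, the protease that inactivates C3b, ranged from 12.4 to 24.7 TPM in untreated rats (median 17.7), from 11.4 to 16.5 TPM after i.p. ASC (median 14.9) and from 9.07 to 24.1 TPM after i.v. ASC (median 13.8). In the CM rats it was 8.61, 14.2, 14.5 and 18.4 TPM. All 3 fold changes to untreated rats were below 0 on the log2 scale, at -0.27 (SE 0.20), -0.21 (SE 0.20) and -0.36 (SE 0.22), and none passed, with adjusted p-values of 0.773, 0.646 and 0.755. The highest Cfi level was that of an untreated rat, and the second highest that of i.v. ASC rat 8.

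Cd55, which dissociates the convertases at the cell surface, ranged from 6.25 to 12.6 TPM in untreated rats (median 8.11), from 5.50 to 10.7 TPM after i.p. ASC (median 7.56) and from 3.97 to 12.8 TPM after i.v. ASC (median 5.51). In the CM rats it was 2.96, 4.45, 7.46 and 10.2 TPM. Here too the 3 log2 fold changes lay below 0, at -0.12 (SE 0.24), -0.37 (SE 0.24) and -0.47 (SE 0.28), with adjusted p-values of 0.903, 0.547 and 0.737. The number in the rat's label moved with Cd55 over the 22 rats (Pearson r = 0.67, permutation p = 0.00065, Spearman rho = 0.67, p = 0.00098), and with that number as a covariate the values were 0.11 (i.p. ASC), -0.08 (i.v. ASC) and -0.40 (CM). Cfb and C3ar1 also rose with the label number (r = 0.52 and 0.46, permutation p = 0.013 and 0.032). For C5ar1, Cfi and C3 r was 0.42, 0.39 and 0.30 (permutation p = 0.0504, 0.0737 and 0.168). Rats 22, 23 and 24 were all untreated, and no i.p. ASC or i.v. ASC rat had a number above 17. The part of this number in these results was not tested.

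The receptors followed the same picture. C5ar1, the C5a receptor of myeloid cells, ranged from 8.16 to 14.1 TPM in untreated rats, from 6.25 to 18.3 TPM after i.p. ASC and from 2.90 to 16.3 TPM after i.v. ASC, and was 8.42, 9.69, 14.5 and 17.3 TPM after CM. C3ar1, the C3a receptor, ranged from 1.04 to 3.34 TPM in untreated rats, from 1.38 to 2.94 TPM after i.p. ASC and from 0.786 to 3.002 TPM after i.v. ASC. Its 4 CM values fell in 2 pairs, 1.19 and 1.47 TPM in rats 11 and 2 and 3.94 and 4.05 TPM in rats 21 and 19. The CM fold changes were the largest of both genes, 0.36 (SE 0.34) for C5ar1 and 0.42 (SE 0.37) for C3ar1 on the log2 scale, with adjusted p-values of 0.875 and 0.865. After i.p. ASC and i.v. ASC the log2 fold changes of both genes lay between -0.05 and 0.14.

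In all, 0 of the 8 genes passed the threshold of 0.05 in the comparison of i.p. ASC, i.v. ASC or CM with untreated rats, or of i.v. ASC with i.p. ASC. Across all genes edgeR called 0 of 12867 (0%) in each of these 4 comparisons, with 500, 1133, 849 and 281 genes at an unadjusted p below 0.05. DESeq2 called 0, 28 (0.183%), 4 (0.0262%) and 24 (0.157%) genes, none of the 8 among them. The median log2 fold change of the 8 genes was 0.01, -0.02 and 0.15 against untreated rats, beside -0.01, -0.01 and -0.003 over all genes. On the log2(TPM + 1) scale the median of all genes was itself shifted, by -0.10 after i.p. ASC and -0.12 after i.v. ASC, and there the fold changes of C3 and C5ar1 in both cell groups, C1s in all 3 groups and C3ar1 after i.p. ASC had the opposite sign. The plot of fold changes shows how far the standard errors overlap.

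**Figure D2:**
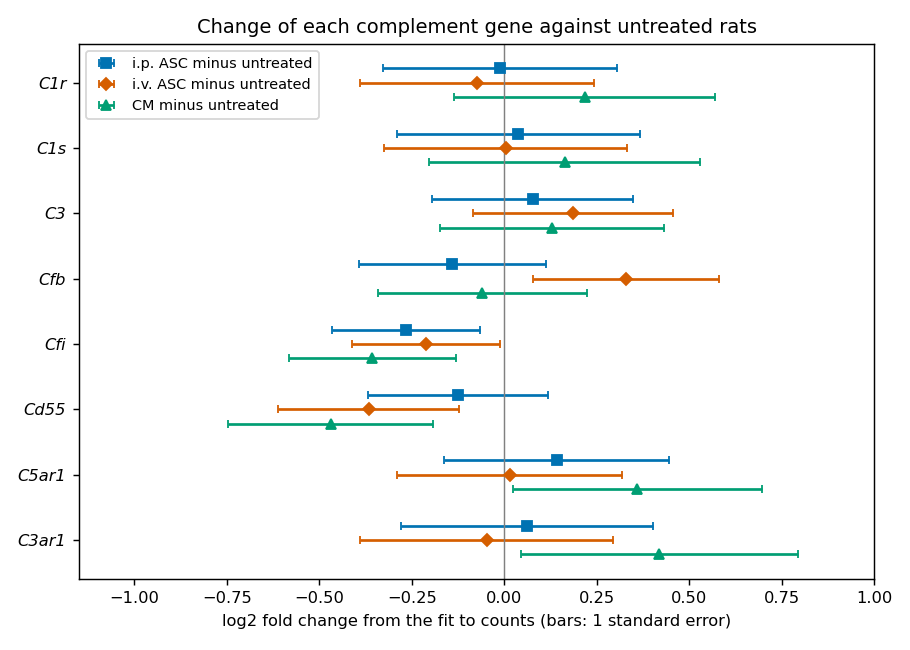
Log2 fold change to untreated rats (horizontal axis) of each complement gene after i.p. ASC, i.v. ASC and CM, from edgeR on the counts, with bars of 1 standard error. No gene passed the threshold, and Cfi and Cd55 lay below 0 in all 3 groups.

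Of 46 further complement genes listed for the comparison, 41 were in the files and 34 passed the filter on low counts. None of the 34 was called in any of the 4 comparisons, beside 0% of all genes. In the 3 comparisons with untreated rats, 16, 20 and 22 of them had a log2 fold change above 0, and their medians were -0.02, 0.02 and 0.08. The smallest unadjusted p in each of these was that of Serping1, the C1 inhibitor that blocks C1r and C1s, at 0.31 (SE 0.10), 0.27 (SE 0.10) and 0.49 (SE 0.11) on the log2 scale, with adjusted p-values of 0.771, 0.523 and 0.563. The next smallest were Mbl1, a mannose-binding lectin, after i.p. ASC (1.24, SE 0.63, adjusted p = 0.771), Masp1, its protease, after i.v. ASC (-0.49, SE 0.22, adjusted p = 0.523) and C4a after CM (0.32, SE 0.12, adjusted p = 0.711). Between the cell routes, C4bpa, a subunit of the C4b-binding protein, gave 1.14 (SE 0.45) and its partner C4bpb -0.35 (SE 0.26), both with an adjusted p of 1.

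Against Slc34a1, C3 alone of the 8 genes was called. Slc34a1 ranged from 227 to 1405 TPM, with C3 at 51.7 TPM in the rat with the lowest Slc34a1, untreated rat 1, and at 13.9 TPM in the rat with the highest, i.v. ASC rat 3. The slope of log2 C3 on log2(TPM + 1) of Slc34a1, fitted with group terms, was -0.48 (SE 0.13), with an adjusted p of 0.0153 from edgeR's quasi-likelihood test. Over rats, r was -0.61 (permutation p = 0.00228) and rho was -0.65 (p = 0.00133), and r was -0.69 without the 2 rats farthest from the median of Slc34a1. Within groups r was -0.64 in untreated rats (n = 6, exact permutation p = 0.172), -0.75 after i.p. ASC (n = 6, exact p = 0.0764) and -0.88 after i.v. ASC (n = 6, exact p = 0.0236), while the 4 CM rats were too few. The smallest p that 6 rats allow is 0.00139. After i.v. ASC, r was -0.94 for C3ar1 (exact permutation p = 0.00694), -0.87 for C1r (exact p = 0.0222) and -0.83 for C1s (exact p = 0.0444). In untreated rats it was above 0 for 5 genes, at 0.02 for C1r, 0.01 for C1s, 0.61 for Cd55, 0.30 for C3ar1 and 0.20 for C5ar1, and the exact permutation test gave p = 0.976, 0.986, 0.196, 0.586 and 0.674.

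The other 7 genes did not pass in this fit. The slope was -0.46 (SE 0.18, adjusted p = 0.078) for C1s, -0.41 (SE 0.17, adjusted p = 0.103) for C1r and -0.36 (SE 0.17, adjusted p = 0.151) for C5ar1. Cfb, C3ar1 and Cfi had slopes of -0.23, -0.23 and -0.17, and Cd55 of 0.02, with adjusted p-values of 0.265, 0.438, 0.273 and 0.946. Thus 1 of 8 genes was called, lower with more Slc34a1, where 17.1% of 12866 genes were called in either direction and 6.86% in that one, so the count for the complement genes is near the background. The slope of C3 lay below that of all but 1.45% of the genes, and those of C1s and C1r below all but 1.59% and 2.54%. DESeq2, which called 18.6% of genes, also called C1r (adjusted p = 0.0408) and C1s (0.0235). The 8 relations over rats, whose values adjusted over all genes are those of the slopes, gave r = -0.47 for C1s (p = 0.0254, rho = -0.47, p = 0.0277), -0.45 for Cfb (p = 0.0355, rho = -0.36, p = 0.101) and -0.44 for C1r (p = 0.0418, rho = -0.38, p = 0.0768). For Cfi, C5ar1, C3ar1 and Cd55 r was -0.40, -0.33, -0.17 and -0.10, with rho of -0.33, -0.31, -0.28 and -0.14 and permutation p-values of r of 0.0648, 0.139, 0.445 and 0.641. The median rho of Slc34a1 with all 12866 other genes tested was itself below 0, at -0.15.

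Other complement genes were inversely related to proximal tubule markers as well. With the summed TPM of the whole proximal tubule list, which holds Slc34a1, r was -0.75 for C1s, -0.73 for C1r and -0.67 for C3, with adjusted permutation p-values of 0.000164, 0.000461 and 0.00229 over the 120 relations with marker lists. It was -0.64 for Cfi, -0.60 for Cfb, -0.56 for C5ar1 and -0.55 for Cd55, which passed as well, and -0.45 for C3ar1 (adjusted p = 0.0544). How many of all genes would pass against this sum was not computed. Of all pairs of genes tested, 36.1% had an r at least 0.46 from 0, which is a share over gene pairs and not against this sum. When the other 14 proximal tubule markers took the place of Slc34a1 in the edgeR fit, the slope was -0.70 for C1s, -0.65 for C3 and -0.64 for C1r, and C3 alone of the 8 was called (adjusted p = 0.0849, 0.0373 and 0.101). That fit called 2267 of 12866 genes.

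For several of the 8 genes, whether the relation to Slc34a1 passed depended on single rats. The C3 slope passed in 21 of the 22 fits that left out 1 rat. Its r over rats stayed between -0.65 and -0.57 in these omissions (permutation p at most 0.00715). Without i.v. ASC rat 3 the C3 slope was -0.35 with an adjusted p of 0.0526, and the number of genes called fell to 798. Calls were gained for C1r without i.p. ASC rat 17 or untreated rat 1 (adjusted p = 0.0445 and 0.0427), for C1s without either of these or CM rat 21 (0.0428, 0.0244 and 0.0466) and for C5ar1 without untreated rat 1 (0.0426). These fits called more genes in all than the main fit, which called 2198 of 12866. The number was 2354 without i.p. ASC rat 17, 2803 without untreated rat 1 and 2612 without CM rat 21. With the label number as a covariate, 3987 of 12866 genes were called, beside 2198 without it. Among them were C3, C1r, C1s and Cfb, with slopes of -0.52, -0.55, -0.59 and -0.32 (adjusted p = 0.00247, 0.0019, 0.00182 and 0.0401). Of the correlations, that of C1s had a p above 0.05 without i.v. ASC rat 3 or i.p. ASC rat 5 (r = -0.38 and -0.41). For Cfb the same held without i.p. ASC rat 5 or 7, i.v. ASC rat 3, 8 or 13 or CM rat 2 (r from -0.43 to -0.36), and for C1r without i.p. ASC rat 5, 6 or 7, i.v. ASC rat 3, 8 or 14 or CM rat 2 (r from -0.42 to -0.33). Conversely, Cfi had a p below 0.05 without untreated rat 12 or 22, i.v. ASC rat 13 or CM rat 21, and C5ar1 without untreated rat 1 (r = -0.44 to -0.45 and -0.44). In the 17 rats above the gap in C1r, r with Slc34a1 was -0.39 for C3 (permutation p = 0.121), 0.14 for C1s (p = 0.594) and 0.25 for C1r (p = 0.327). These 5 rats were set aside after their values were seen and by a complement gene itself, which narrows the range of the other 7. Of the 5, i.p. ASC rats 5 and 7, i.v. ASC rat 3 and CM rat 2 had Slc34a1 levels of 1147 to 1405 TPM, and i.v. ASC rat 9 had 849 TPM. Untreated rat 22 and CM rat 21 had Slc34a1 at 1156 and 1146 TPM as well, with C1r at 146 and 245 TPM.

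**Figure D3:**
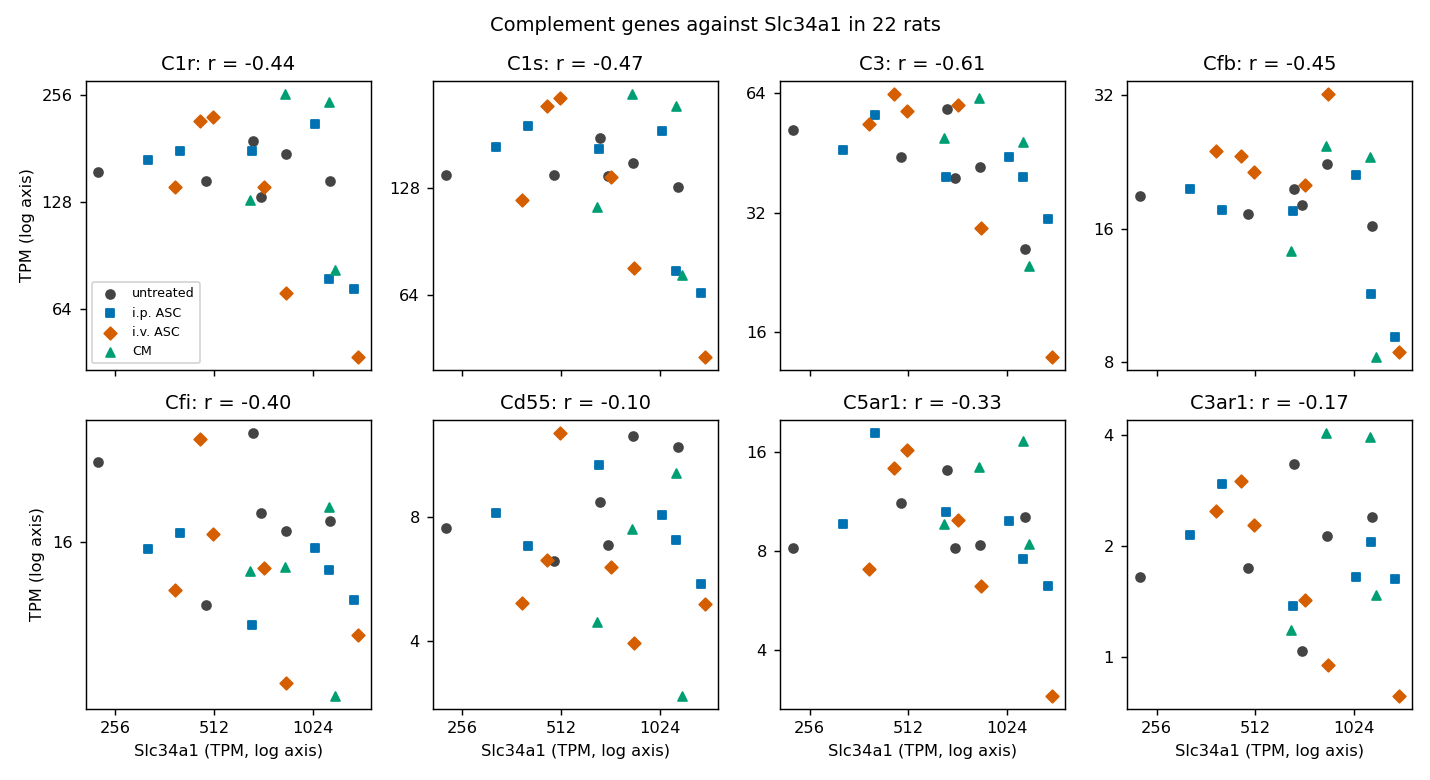
TPM of each complement gene (vertical, log axis) against Slc34a1 TPM (horizontal, log axis) with 1 point per rat and Pearson's r on log2(TPM + 1) over 22 rats. C3 falls from left to right (r = -0.61), and in C1r and C1s the 5 lowest points stand apart from the other 17.

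Among the 34 other complement genes tested, 5 were called on the slope (14.7%, beside 17.1% of all genes). Mbl1 rose with Slc34a1 (slope 1.31, SE 0.26, adjusted p = 0.00261), as did C8g (0.32, SE 0.11, adjusted p = 0.0471). Clu, the abundant fluid-phase inhibitor clusterin, fell (-0.38, SE 0.09, adjusted p = 0.0073), as did the C3d receptor Cr2 (-0.63, SE 0.19, adjusted p = 0.0299) and the scavenger collectin Colec12 (-0.42, SE 0.13, adjusted p = 0.0317). In all, 23 of the 34 had a slope below 0, where 53.8% of all genes did, and their median slope was -0.17 beside -0.01.

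Most pairs of the 8 genes were correlated over rats. Of their 28 pairs, 24 had a permutation p of Pearson's r below 0.05 before any adjustment, with a median rho of 0.61 (range 0.21 to 0.97). The smallest r among the 24 was 0.46, and 36.1% of all pairs of the 12867 genes tested had an r at least that far from 0, 27% above it and 9.11% below it. The median rho of one of the 8 genes with all 12866 other genes tested ran from 0.17 for C3 to 0.46 for Cd55, whose rho with C3 (0.21) and Cfb (0.25) lay below that median. On log2 CPM in place of log2(TPM + 1), 20 pairs had such a p, and the median rho was 0.51 (lowest 0.01). When the values were centred on the group means the count was 26, and without the 5 rats below the gap in C1r it was 10. All values come from the same 22 libraries.

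The tightest pair was C1r and C1s. The ratio of C1r to C1s stayed between 0.935 and 1.19 (median 1.09, coefficient of variation 7.17%), while C1r alone varied 5.49-fold and C1s 5.44-fold between rats. Their r was 0.99 and rho 0.97 (permutation p = 1e-05 for both, the smallest 100000 permutations can give), and r was 0.95 in the 17 rats above the gap. C1s was the gene most like C1r among all 12866. Next were Slco2b1, an organic anion transporter, and Ptafr, the receptor of platelet-activating factor (rho = 0.97 each). The ratio did not stand apart in any group, with means of 1.09 ± 0.0734 (SD, n = 6) in untreated rats, 1.06 ± 0.0793 (n = 6) after i.p. ASC, 1.04 ± 0.0929 (n = 6) after i.v. ASC and 1.13 ± 0.02 (n = 4) after CM, and was not tested. The estimated counts of C1s were whole in every rat (1263 to 6412), while those of C1r were not (1267.45 to 6534.38). How reads shared by similar genes were split is not given in the sources used here, and sharing of reads between C1r and C1s was not tested.

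C5ar1 followed the C1 proteases, with r = 0.88 for C1s and 0.85 for C1r (permutation p = 1e-05 each). Both receptors varied together (r = 0.75, p = 1e-05, rho = 0.65, p = 0.0015), and C5ar1 exceeded C3ar1 by 2.84-fold to 8.18-fold in every rat. The genes most like C5ar1 were Cfp, the alternative arm's stabilizer properdin (rho = 0.94), Arrb2, an arrestin of chemoattractant receptors (0.94), and Ctss, a cathepsin of antigen-presenting cells (0.93). For C3ar1 they were the Fc receptor gene Fcgr2a (0.84), Acod1 of activated macrophages (0.83) and the oxidase subunit Ncf4 (0.83). C3 was paired with C1s (r = 0.82) and C1r (0.80) more tightly than with Cfb (0.64) or Cfi (0.60), though these differences were not tested, and its most similar genes were Prr16 (rho = 0.89), the matrix protein gene Thbs2 (0.89) and Sema4a (0.87). Cfb and Cd55 had r of 0.37 (permutation p = 0.0901), and C3 and Cd55 0.32 (permutation p = 0.141).

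**Figure D4:**
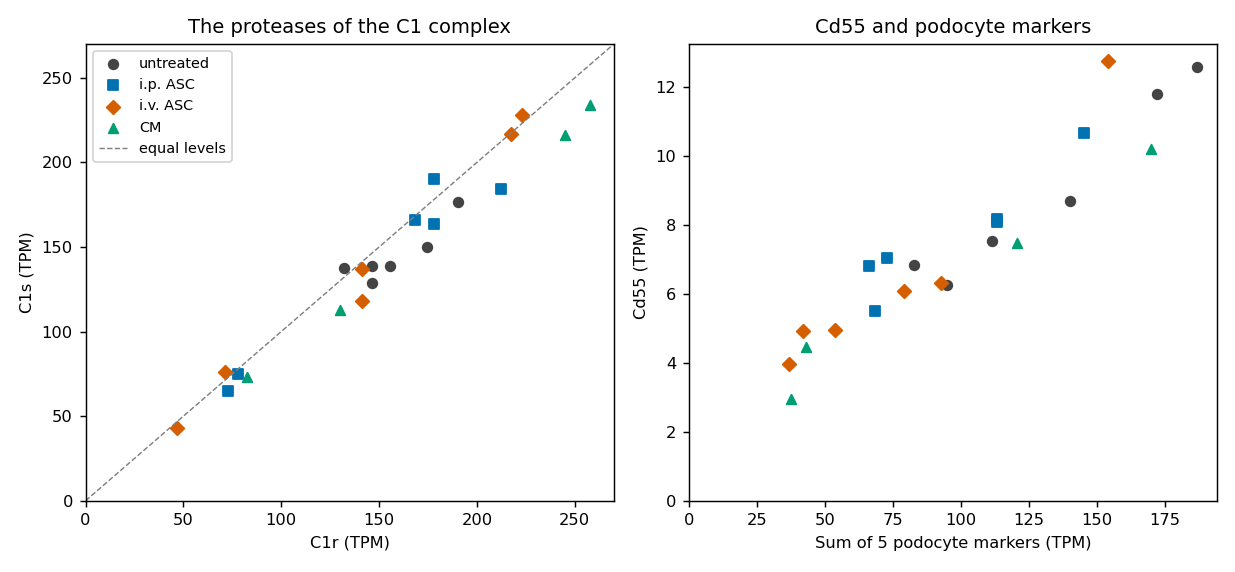
Left, C1s against C1r in TPM with 1 point per rat and a dashed line of equal levels, and right, Cd55 in TPM against the summed TPM of 5 podocyte markers. C1s follows C1r along the line in all groups (ratio 0.935 to 1.19), and Cd55 climbs with the podocyte sum from 36.9 to 187 TPM.

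Cd55 was closest to genes of the glomerulus. Its nearest genes were Clic5 (rho = 0.97) and Podxl (0.95), both known from podocytes, and the guidance cue gene Slit2 (0.95). Against the summed TPM of 5 podocyte markers (Nphs1, Podxl, Ptpro, Synpo and Wt1) it had r = 0.95 and rho = 0.95, and r = 0.93 without the 2 rats farthest from the median of the sum (adjusted permutation p = 6.316e-05 over all relations with marker lists). The podocyte sum ranged from 82.7 to 187 TPM in untreated rats, from 66.1 to 145 after i.p. ASC, from 36.9 to 154 after i.v. ASC and from 37.5 to 170 after CM, none of the 5 markers being at 0 in any rat. The lowest podocyte sums, like the lowest Cd55 levels, were those of i.v. ASC and CM rats, and the part of podocyte RNA in the Cd55 values was not tested. Endothelial markers followed Cd55 as well (r = 0.84, rho = 0.91, same adjusted p).

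Across 15 marker lists and 8 genes, 120 relations were computed, with Benjamini-Hochberg adjustment over all of them. Macrophage markers moved with C1s (r = 0.95, rho = 0.92), C1r (0.93 and 0.87) and C5ar1 (0.92 and 0.84), each with an adjusted permutation p of 6.316e-05, and with C3ar1 (0.71 and 0.70, adjusted p = 0.000745). Fibroblast markers moved with C1r (r = 0.90, rho = 0.89) and C1s (0.88 and 0.86), at the same adjusted p of 6.316e-05. Lymphocyte markers did so with C1s (r = 0.89, rho = 0.80), C5ar1 (0.87 and 0.85) and C1r (0.86 and 0.75), again at that adjusted p. By rho, C1r was thus highest with the fibroblast list and C5ar1 with the lymphocyte list. In the 17 rats above the gap in C1r, C1r had r = 0.69 with the macrophage sum and 0.87 with the fibroblast sum. Lyz2 made up most of the macrophage sum, at a mean of 1335 TPM, and none of the 12 macrophage or 10 fibroblast markers was at 0 in any rat.

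C3 moved with the lymphocyte markers (r = 0.88, rho = 0.77), the macrophage markers (0.84 and 0.68) and the tubular injury markers (0.63 and 0.68), with adjusted permutation p-values of 6.316e-05, 6.316e-05 and 0.00434. These r were 0.75, 0.68 and 0.63 without the 2 rats farthest from the median of each sum. The lymphocyte list was led by Cd4, at a mean of 61.0 TPM. Cfi had r = 0.83 and rho = 0.74 with the tubular injury list, led by Spp1, and 0.80 and 0.80 with the NF-kappaB targets, each at an adjusted p of 6.316e-05. The NF-kappaB list moved with other genes too, at r = 0.90 for C1s and C1r, 0.78 for C3 and 0.77 for C5ar1. Among the genes most like Cfi were the lysosomal protease genes Ctsb (rho = 0.90) and Dpp7 (0.89). Cfb, an interferon-inducible gene, had its highest r with the interferon targets (0.72, adjusted permutation p = 0.00096), below the r of C1r (0.85) and C1s (0.83) with that list. By rho, the interferon targets (0.50) came after the fibroblast (0.55) and macrophage (0.53) markers for Cfb. Without the 2 rats farthest from the median of each sum, its r was 0.53 with interferon targets, 0.75 with endothelial and 0.55 with podocyte markers. The genes most like Cfb were Aldh1a3 (rho = 0.81), Bpifc (0.81) and Nrip3 (0.79). With the liver list r lay between -0.32 and 0.11 for the 8 genes, none of which passed.

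**Figure D5:**
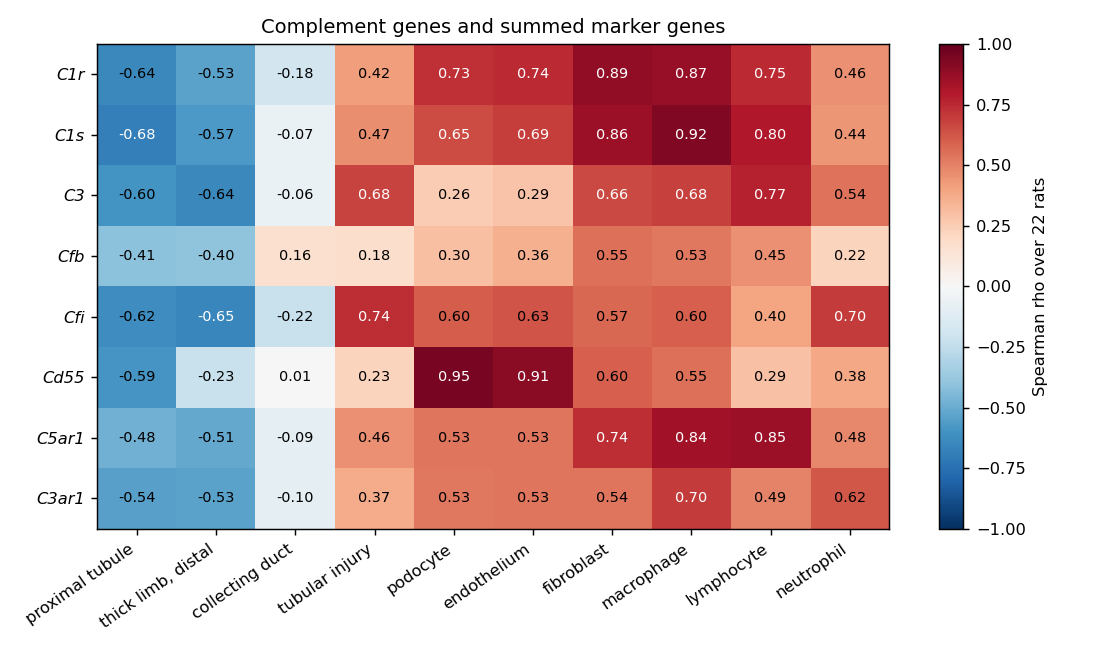
Spearman's rho over 22 rats between each complement gene (rows) and the summed TPM of 10 marker lists (columns), with the color scale from -1 to 1. Cd55 stands out by its rho with podocyte (0.95) and endothelial (0.91) markers. C1r, C1s and C5ar1 had rho of 0.84 to 0.92 with macrophage, 0.74 to 0.89 with fibroblast and 0.75 to 0.85 with lymphocyte markers.

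The macrophage sum ranged from 1518 to 2150 TPM in untreated rats, from 968 to 2639 after i.p. ASC, from 487 to 2401 after i.v. ASC and from 1030 to 2622 after CM. I.v. ASC rat 3, with the lowest C1r, C1s, C3, C3ar1 and C5ar1 of all rats, also had the lowest macrophage sum, 487 TPM, and the 5 rats below the gap in C1r held the 5 lowest sums, 487 to 1067 TPM. The fibroblast sum was likewise 324 to 434 TPM in these 5 rats and at least 535 TPM in the other 17. The part of cell composition in the levels of C1r and C1s was not tested.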

How the data were processed

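Sequencing ran on a BGISEQ-500 instrument, from snap-frozen left kidneys. The authors deposited 2 values per gene and rat, an estimated count without normalization and a TPM value scaled by transcript length and total. The submitters' processing notes name Trim Galore 0.6.4, kallisto 0.4.6 and rn6. The study's methods name DESeq2 and a human transcript package. The estimated counts (14.1% not whole) were rounded. Symbols of 17179 of 17334 genes came from the RefSeq table of GRCr8, used for names and neighbours.

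Groups followed the sample labels. edgeR 4.0.16 in R 4.3.3 (TMM, filterByExpr, quasi-likelihood F test, all 22 rats in one fit, Benjamini-Hochberg adjustment, threshold 0.05) tested 12867 genes between groups and, with group terms, their slope on log2(TPM + 1) of Slc34a1. Alternatives were DESeq2 1.42.0, RLE factors, other filters, only 2 groups, limma 3.58.1 on log2(TPM + 1), Slc34a1 or label number as covariate, and leaving out each rat. Correlations over rats used log2(TPM + 1) and 100000 permutations, exact for 6 rats. The procedure was tested on simulated counts. The genes named are the 8 complement genes and Slc34a1, other complement genes past the threshold (at most 5 per direction, or otherwise the 2 with the smallest unadjusted p), the 3 genes most like each of the 8, and the highest marker genes or those at 0, of which 1 of the similar genes is not reported here. A podocyte marker was also left out of its list. Members and lists were chosen with earlier results of these data known. Counts of rats within a group differed by more than sampling noise (lowest chi-square per gene 7.51). The labels name no batch. Reads of similar, overlapping or antisense genes cannot be assigned with certainty, because neither strand nor the splitting of reads is given in the sources used here. ABCB5+ groups and other CM rats were not analysed here.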

Additional observations from a re-analysis of the deposited data

Results flagged for a closer look

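Among 36 sets of values (the 8 complement genes and Slc34a1 in 4 groups), 1 sample stood apart from its group on the log2(TPM + 1) scale. Cfb in i.v. ASC rat 3 was 8.44 TPM, and its gap to the next rat was 0.640 of the group's whole range, beyond Dixon's critical value of 0.625 for 6 samples. Chance flags about 1 in 20 such groups. The other 5 i.v. ASC rats ranged from 20.1 to 32.2 TPM. CM rat 2 and i.p. ASC rat 5 had Cfb at 8.23 and 9.11 TPM.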

How the results depend on the processing

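At an adjusted p below 0.05, DESeq2 called 28 genes for i.v. ASC, 4 for CM and 24 for i.v. ASC against i.p. ASC, and a fit of only CM and untreated rats called 1, where edgeR called 0 throughout. None of the 8 complement genes was called between groups under any setting. With each rat left out in turn, edgeR called 0 to 14 genes for i.v. ASC (14 without i.v. ASC rat 14, 11 without rat 8), 0 to 13 for i.v. ASC against i.p. ASC (13 without rat 8 or 14, 5 without rat 10) and 0 for i.p. ASC and CM. On the slope it called 798 to 2803 (798 without i.v. ASC rat 3, 1344 without i.p. ASC rat 5), and 3987 with the label number as a covariate, a setting added, like the omission of 5 rats, after the data were seen. Under alternatives other than leaving out 1 rat, 236 fold changes of the 8 genes kept their sign and 20 turned. On log2(TPM + 1) with limma, the sign turned for i.p. ASC in C3 (-0.0087), C1s (-0.16), C3ar1 (-0.021) and C5ar1 (-0.0035), for i.v. ASC in C3 (-0.036), C1s (-0.29) and C5ar1 (-0.21), for CM in C1s (-0.013), and for i.v. ASC against i.p. ASC in C3 (-0.027) and Cfi (-0.018). With Slc34a1 as a covariate it turned in C1r (i.p. ASC, 0.029), C1s and C5ar1 (i.v. ASC, -0.062 and -0.022), Cfb (CM, 0.076) and C3 (i.v. ASC against i.p. ASC, -0.020). With the label number it turned in C1r (0.15 for i.p. ASC and 0.15 for i.v. ASC), Cd55 (i.p. ASC, 0.11), C3ar1 (i.v. ASC, 0.18) and C1s (i.v. ASC against i.p. ASC, 0.016). The slope of Cd55 turned to -0.013 with limma, -0.023 without group terms, -0.042 on 14 other proximal tubule markers and -0.069 with the label number. Leaving out each rat turned the sign of fold changes near 0. For i.p. ASC the ranges were -0.057 to 0.15 (C3), -0.11 to 0.12 (C1r), -0.11 to 0.18 (C1s), -0.11 to 0.24 (C3ar1) and -0.13 to 0.25 (C5ar1). For i.v. ASC they were -0.29 to 0.10 (C1r), -0.23 to 0.18 (C1s), -0.28 to 0.12 (C3ar1) and -0.18 to 0.20 (C5ar1), and for CM -0.21 to 0.15 (Cfb) and -0.020 to 0.37 (C1s). For i.v. ASC against i.p. ASC they were -0.061 to 0.28 (C3), -0.18 to 0.14 (Cfi), -0.29 to 0.11 (C1r), -0.27 to 0.14 (C1s), -0.35 to 0.066 (C3ar1) and -0.32 to 0.14 (C5ar1). The slope of Cd55 ran from -0.032 to 0.072. The correlation with Slc34a1 ran from -0.65 to -0.57 for C3, -0.53 to -0.36 for Cfb, -0.45 to -0.29 for Cfi, -0.53 to -0.33 for C1r, -0.56 to -0.38 for C1s, -0.44 to -0.18 for C5ar1 and -0.19 to 0.013 for Cd55. Without the 5 rats below the gap in C1r it was -0.39 for C3, 0.046 for Cfb, 0.25 for C1r, 0.14 for C1s, 0.36 for Cd55, 0.13 for C3ar1 and 0.16 for C5ar1, and 10 of 28 pairs of complement genes had a p below 0.05. For C1r it was -0.41 on TPM without logarithm (permutation p = 0.0575), and for C5ar1 -0.44 on values centred on group means and -0.49 without the 2 rats farthest from the median (p = 0.0421 and 0.026). The cause of these changes was not tested. No paired analysis was possible because the groups share no replicate number. Depth limits C3ar1 most, at 15 to 75 counts per rat.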
